A study of Mus musculus with 4 samples.

Results

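Promoters of protein-coding genes that carried an ATAC-seq peak on day 2 (d2) of differentiation and none on day 4 (d4) numbered 1518, of 40910 regions with a peak in any library. ATAC-seq uses a transposase that inserts sequencing adapters into accessible DNA, so a peak marks a stretch of open chromatin. Overlapping peaks (1 bp or more) of the 4 libraries were joined into single regions, and a region was kept if both d2 libraries had a peak there, neither d4 library did and it lay within 1000 bp of a transcript start (TSS) of a protein-coding gene. The members were therefore chosen by the peak calls themselves, and their presence at d2 and absence at d4 are a description, not a test. The cells of all libraries were of 1 line of mouse embryonic stem cells (mESCs), ES-E14TG2a, of wild-type genotype. The 2 d4 libraries were made from cells that had been exposed to Activin A, BMP4 and VEGF, and the 2 d2 libraries from cells collected before that exposure. The replicates at each time point came from separate differentiation experiments, and the d4 culture was a mixture in which only a minority of cells were endothelial. In bulk samples, fewer cells with an open promoter and less accessibility per cell cannot be told apart.

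A promoter is the stretch around a TSS where RNA polymerase II and general factors assemble. Most mammalian promoters lie in CpG islands, stretches in which the dinucleotide CpG is kept at close to the density expected from base composition, and promoters of widely expressed genes of this kind stay accessible in nearly all cell types. Promoters with few CpGs are more often open in a restricted set of cells, and many genes have several promoters that are used in different cells.

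The range of CpG content among the d2-only promoters is seen in 6 stretches of 120 bp taken inside the peaks of genes described below, with every CpG in capitals. They were read from GRCm38, the build of mm10, on the strand of the gene, upstream of the nearest TSS of that gene and outside all annotated exons.
Crybg1, chr10:44148935-44149054 (minus strand): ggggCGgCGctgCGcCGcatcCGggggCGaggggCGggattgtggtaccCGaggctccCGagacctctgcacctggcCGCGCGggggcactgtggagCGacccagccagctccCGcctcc
Spint1, chr2:119237242-119237361 (plus strand): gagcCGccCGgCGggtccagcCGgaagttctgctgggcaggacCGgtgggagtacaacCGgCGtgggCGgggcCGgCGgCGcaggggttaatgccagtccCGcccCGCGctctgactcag
Zfp42, chr8:43306992-43307111 (minus strand): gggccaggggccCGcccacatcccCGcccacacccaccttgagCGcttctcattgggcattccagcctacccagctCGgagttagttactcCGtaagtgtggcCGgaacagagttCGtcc
Sycp3, chr10:88459449-88459568 (plus strand): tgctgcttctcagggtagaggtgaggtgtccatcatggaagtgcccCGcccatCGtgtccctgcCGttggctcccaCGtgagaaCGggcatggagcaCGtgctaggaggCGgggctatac
Epcam, chr17:87635810-87635929 (plus strand): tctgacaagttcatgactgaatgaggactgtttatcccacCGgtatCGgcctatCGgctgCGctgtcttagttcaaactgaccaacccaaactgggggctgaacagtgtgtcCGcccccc
Pou5f1, chr17:35505044-35505163 (plus strand): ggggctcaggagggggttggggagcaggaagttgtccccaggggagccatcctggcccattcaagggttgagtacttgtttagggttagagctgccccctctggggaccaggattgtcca
The stretch at Pou5f1 held 0 CpGs, that at Epcam held 5 separate runs of CpG, those at Zfp42 and Sycp3 held 7 runs each, and those at Spint1 and Crybg1 held 14 runs each. In another 4 stretches, of 80 bp, capitals mark short motifs that are compared between promoter classes further below, in order the CCAAT box (CCAAT), the GC box (GGGCGG), the ZIC motif (CAGCAGG) and the POU octamer (ATGCAAAT). Each is among the strongest members with that motif within 100 bp of the summit.
Plekhd1, chr12:80692511-80692590 (plus strand): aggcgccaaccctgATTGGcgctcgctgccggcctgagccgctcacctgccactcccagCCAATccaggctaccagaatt
Tnfrsf8, chr4:145315282-145315361 (minus strand): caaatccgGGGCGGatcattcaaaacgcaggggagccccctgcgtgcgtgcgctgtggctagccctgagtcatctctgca
Ankrd6, chr4:32923575-32923654 (minus strand): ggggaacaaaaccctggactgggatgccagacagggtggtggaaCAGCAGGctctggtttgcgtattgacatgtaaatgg
Mageb16, chrX:79671550-79671629 (minus strand): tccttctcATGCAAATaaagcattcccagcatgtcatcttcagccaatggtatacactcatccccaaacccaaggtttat

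The d2-only pattern covered 9.15% of the 16595 regions at coding-gene promoters and 13.8% of all regions. The reverse pattern, called in both d4 libraries alone, was seen at 335 coding-gene promoters, and 9512 had a peak in all 4 libraries. A further 1021 coding-gene promoters were called only in d2 replicate 1 and 1264 only in d2 replicate 2, so without d2 replicate 1 the count of d2-only promoters was 2853 and without d2 replicate 2 it was 2840. The libraries held 22511 and 21299 peaks at d4, against 26865 and 24544 at d2. The d4 libraries had the higher background coverage, 0.755 and 0.744, against 0.568 and 0.483 at d2 (pileup per base, solved from the peak lists). The smallest p of an exact permutation test between 2 d4 and 2 d2 libraries is 0.333, so no region was tested. Among marker lists, 20 and 22 of 39 core and naive pluripotency genes had a called start region at d4, against 29 and 32 at d2. The counts were also lower at d4 for the endothelial list, 28 and 29 of 50 genes at d4 against 31 and 34 at d2, and for the neural list, 16 and 14 of 30 genes at d4 against 22 and 26 at d2. Called starts of the endothelial list as a whole therefore did not separate the days in the direction of the labels. Lower counts at d4 were seen for lists of several kinds but not for all. The ubiquitously expressed list had 25 and 26 of 29 genes at d4, against 26 in each d2 library. Early and cardiac mesoderm had 20 and 23 of 38 at d4 against 21 and 23. The haematopoietic list had 11 and 10 of 22 at d4 against 10 and 12. Within the endothelial list, the start of Cdh5, which encodes VE-cadherin, was called in 1 of the 2 d4 libraries and in neither d2 library, and that of Kdr, a VEGF receptor gene, was called in all 4. Pou5f1 had no called start region in either d4 library and at least 1 in each d2 library, and Nanog, another core pluripotency gene, had none at d4 and 1 in d2 replicate 2 alone. Sox2, of the same list, had a called start region in all 4 libraries. Of the mesoderm list, T and Eomes had one in both d2 libraries and in d4 replicate 2. Mesp1 had one in d2 replicate 2 alone, and Gata4 in every library but d2 replicate 1.

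Peaks at the d2-only promoters were of modest height. The authors' fold enrichment of peak over local background had a median of 6.57 in d2 replicate 1 (range 4.01 to 18.3) and 7.31 in d2 replicate 2 (range 3.79 to 16.9). The median summit pileup, which is the number of fragments or extended reads stacked at the highest point, was 14 and 15 in d2 replicates 1 and 2, against 23 and 28 in the same libraries at coding-gene promoters called in all 4. The promoters called only at d4 had median pileups of 16 and 15 in the d4 libraries. Fold enrichment in the 2 d2 libraries went together only loosely across members, with a Pearson r of 0.51 and a Spearman coefficient of 0.44 over 1518 regions of the same libraries, given as a description. The pileup over background was higher in replicate 2 at 1217 of the 1518 members.

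**Figure D1:**
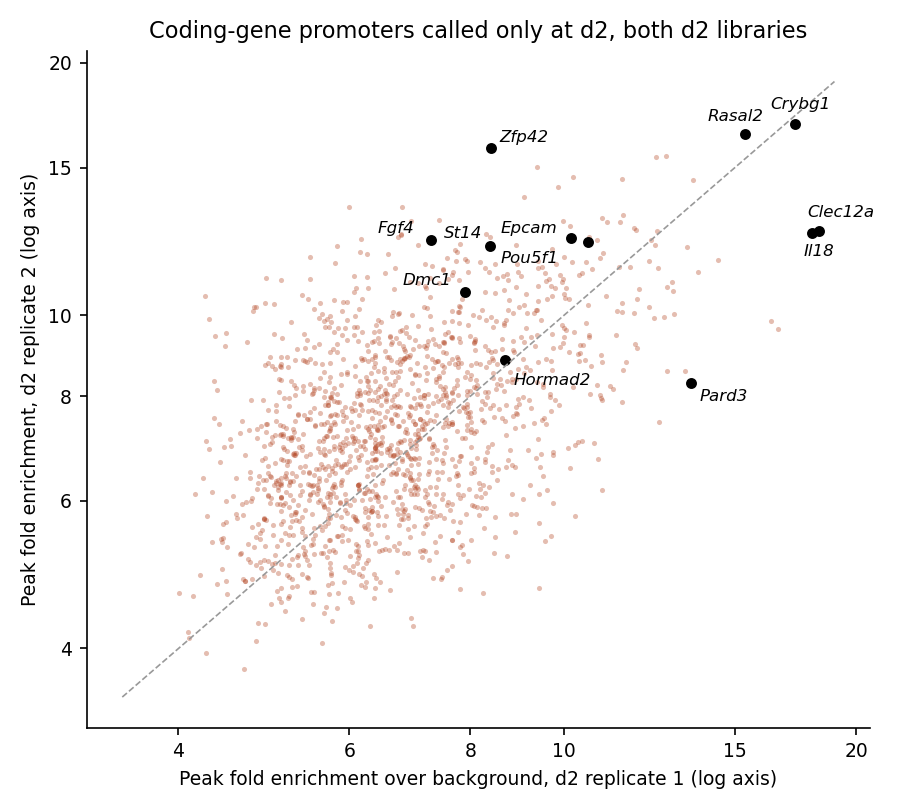
Fold enrichment of the 1518 d2-only coding-gene promoters in d2 replicate 1 (horizontal, log axis) and d2 replicate 2 (vertical, log axis), 1 point for each region, with 12 members in black. Crybg1 has the highest value in the weaker of its 2 libraries (17.3 and 16.9), Clec12a and Il18 are higher in replicate 1, Zfp42 is higher in replicate 2, and the dashed line marks equal values.

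The strongest member was at Crybg1, which encodes a protein with beta/gamma-crystallin domains, at chr10:44148643-44149248, with a fold enrichment of 17.3 and 16.9 in d2 replicates 1 and 2. Rasal2, which encodes a RAS GTPase-activating protein, had values of 15.4 and 16.5, and Agps, an enzyme gene of ether lipid synthesis, had 13.6 and 14.5. Plekhd1 followed with 12.7 and 15.5. Clec12a, which encodes an inhibitory lectin receptor of myeloid cells, had 18.3 and 12.6. The region between the cytokine gene Il18 and Bco2, a gene for a carotenoid-cleaving enzyme, lay over an Il18 start and had 18.01 and 12.5. Tnfrsf8, which encodes the receptor CD30, had 12.5 and 12.6, and Filip1, whose product binds filamin A, had 12.4 and 15.5. Dennd1c, a gene for an exchange factor of Rab GTPases, had 12.4 and 12.1 in a region 779 bp from the nearest start. The sodium/proton exchanger gene Slc9a7 had 13.4 and 12.1, and Vwde had 11.9 and 12.6. These values chose the genes that are named and support nothing further.

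The strongest members included genes with and without another start region called at d4. A start region is any called region within 1000 bp of any start of the gene. Another start region can thus be a neighbouring peak at the same start and need not be a separate promoter. At Rasal2, Agps and Filip1 the d2-only region had no principal transcript start within 1000 bp, which was also true of Crybg1, Dennd1c and Slc9a7. For Rasal2, Agps and Filip1, another start region of the same gene was called in both d4 libraries. The windows at these 3 genes were poor in CpG, with CpG observed over expected of 0.034 at Rasal2, 0.10 at Agps and 0.16 at Filip1. Crybg1, Clec12a, Il18, Tnfrsf8, Dennd1c and Vwde had no other called start region, so that no start of these genes was called at d4. The same was true of Slc44a3, a choline transporter-like gene (fold enrichment 11.8 and 12.7), and of Prelid3a (14.4 and 11.6).

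Across all members, 1497 coding genes had a d2-only start region, which is 10.8% of the 13895 coding genes with any called start region. Of these genes, 898 had no start region called in a d4 library, 151 had another that was called in 1 d4 library and 448 had another that was called in both. A start region called in all 4 libraries was present at 397 of them, and 28 also had one called only at d4, a pattern seen at 340 coding genes (2.45%). Counted by region, the gene nearest to 602 of the 1518 members (39.7%, 95% Wilson interval 37.2 to 42.1) had another start region called at d4. With peaks within 500 bp merged, that share was 28.8%. Among promoters called in all 4 libraries, the share with another start region called at d4 was lower, 19.96% (19.2 to 20.8, 1899 of 9512). For promoters called only at d4, the share with another start region called at d2 was 67.5% (62.3 to 72.3, 226 of 335). When every library was held to -log10 q of at least 10, 992 promoters were d2-only. Their share with another start region called at d4 was 18.95%. That limit also drops weaker d4 peaks, so these 992 are not a subset of the members and fewer starts count as called at d4. The Wilson intervals here and below cover counting error over regions, which are not replicates of the culture.

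Most genes had a single d2-only start region, 74 had 2 and 5 had 3. Susd4, which encodes a complement regulator, had 3 regions, each over a start, and no start called at d4, with lower fold enrichments of the d2 pair between 5.18 and 6.48. Dlgap2, a gene for a postsynaptic scaffold protein, also had 3 and none at d4 (5.06 to 6.13). Magi1, which encodes a junctional scaffold protein, Tfeb, a regulator of lysosomal genes, and Pip4k2a, a phosphoinositide kinase gene, each had 3 d2-only regions and another start region called in both d4 libraries.

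The d2-only promoters sat less tightly on the TSS than promoters that stayed called. The region lay over a coding TSS at 954 of the 1518 members (62.8%, 60.4 to 65.2), at 8776 of the 9512 promoters called in all 4 libraries (92.3%, 91.7 to 92.8) and at 150 of the 335 called only at d4 (44.8%, 39.5 to 50.1). Without d2 replicate 2, when a peak in d2 replicate 1 was enough, the share among d2-only promoters was 40%. A start of a principal transcript, by the APPRIS annotation, was within 1000 bp of 75.3% of members (73.1 to 77.4), against 93.4% (92.8 to 93.8) of promoters called in all 4. The summit lay more than 200 bp downstream of the nearest coding TSS at 341 members (22.5%), against 690 shared promoters (7.25%). Members were also shorter, with a median length of 345 bp, against 639 bp for promoters called in all 4. A longer region reaches a TSS more easily, and the shares over a TSS were not matched for length. Starts of coding genes on both strands lay within 1000 bp of 55 members (3.62%, 2.79 to 4.69), against 1068 of the promoters called in all 4 (11.2%, 10.6 to 11.9).

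**Figure D2:**
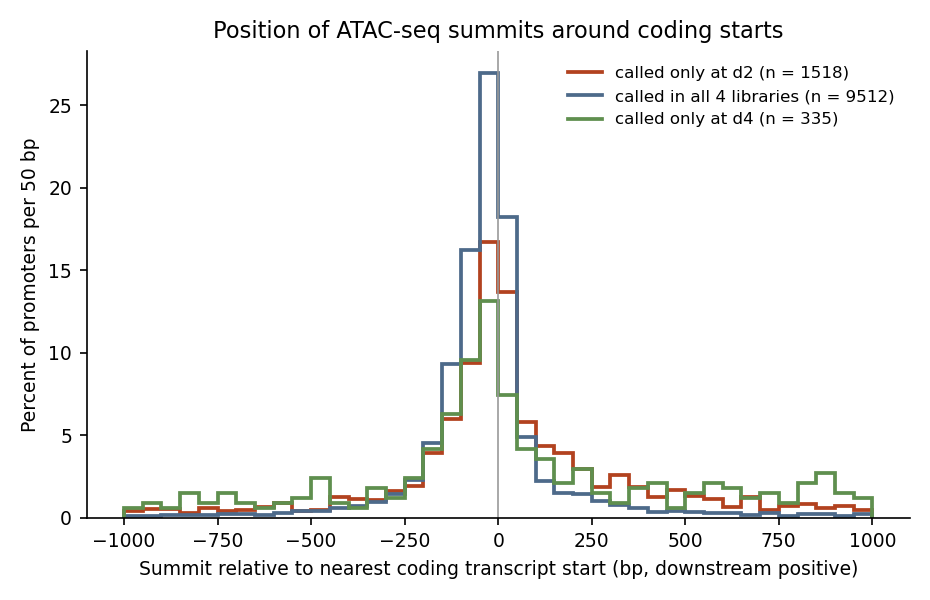
Position of the summit of the strongest peak relative to the nearest coding TSS (horizontal, bp, downstream positive, within 1000 bp) as percent of promoters per 50 bp (vertical), for coding-gene promoters called only at d2, called in all 4 libraries and called only at d4. The d2-only curve is lower at the TSS than the curve for all 4 libraries and higher downstream of it.

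A part of the members flanked chromatin that was still called. A d4 peak lay within 1000 bp of 282 members (18.6%, 16.7 to 20.6) and within 200 bp of 75 (4.94%). By comparison, 3.13% (2.62 to 3.72) of the 3871 distal d2-only regions had a d4 peak within 1000 bp, and 30.1% (25.5 to 35.3) of the promoters called only at d4 had a d2 peak that near. The share among d2-only promoters was 32.4% without d2 replicate 2 and 6.45% with every library held to -log10 q of at least 10, a limit that also drops weaker d4 peaks. The d2-only region of Notch4, a Notch receptor gene, was 143 bp from a d4 peak. Those of Zfp42, Fgf4, Spint1 and Dmc1 were 6979, 22025, 18126 and 53077 bp away.

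In base composition the d2-only promoters stood between promoters that stayed called and those called only at d4. Their median GC content in 500 bp around the summit was 63.4%, against 63.8% for promoters called in all 4 libraries and 52.8% for those called only at d4. The median CpG observed over expected was 0.63 in members (quartiles 0.42 to 0.81), 0.79 in promoters called in all 4 (0.67 to 0.89), 0.30 in those called only at d4 and 0.21 in distal d2-only regions. CpG-rich windows, with a ratio of at least 0.6 and GC of at least 55%, made up 52.1% of members (49.6 to 54.6) and 79.5% (78.6 to 80.3) of promoters called in all 4. CpG-poor windows, with a ratio under 0.4, made up 23.2% (21.1 to 25.4) and 3.44% (3.09 to 3.82) of the same classes. Read the other way, 17.5% of all 2012 CpG-poor coding-gene promoters, 11.3% of the intermediate ones and 7.02% of the 11271 CpG-rich ones were called only at d2. At like GC content the lower CpG ratio of members was seen again. In windows of 55 to 60% GC the median ratio was 0.42 in 257 members and 0.71 in 1844 promoters called in all 4, and at 70% GC or more it was 0.86 and 0.89. Members over a TSS had a median ratio of 0.66, against 0.57 in members beside one.

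**Figure D3:**
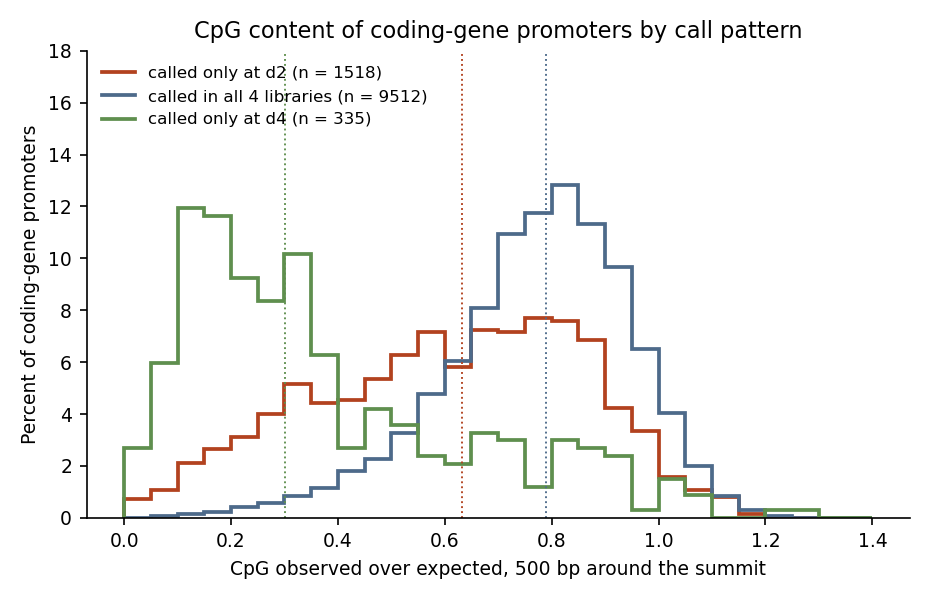
Distribution of CpG observed over expected in 500 bp around the summit (horizontal), as percent of the promoters of each class (vertical), for coding-gene promoters called only at d2 (n = 1518), in all 4 libraries (n = 9512) and only at d4 (n = 335), with dotted lines at the medians. The d2-only promoters spread from CpG-poor to CpG-rich windows with a median of 0.63, between the medians of 0.79 and 0.30 of the other classes.

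A difference between libraries moved with GC content. At promoters called in all 4 libraries, the log2 ratio of d4 over d2 pileup, each divided by its library's background, had a median of -0.46. It was -0.19 below 50% GC and -0.62 at 70% GC or more. The log2 ratio of d2 replicate 2 over replicate 1 had a median of 0.23 below 50% GC and 0.67 at 70% or more, and that between the d4 replicates stayed between -0.05 and 0.02. The share of coding-gene promoters called only at d2 was 11.6% below 50% GC, 7.99% at 55 to 60% and 10.8% at 70% or more, so it did not follow GC in 1 direction, while that of promoters called only at d4 was 11.9%, 1.74% and 0.31% in the same bins. Scaled by background alone, the d2 pileup of all 1518 members would have reached the smallest pileup that passed the p of a called peak in both d4 libraries, with a median ratio of 1.97 to it. Lowered further by the median shift of shared promoters of the same GC, 1458 members (96.0%) would have reached it, with a median ratio of 1.449, and 183 would have exceeded it at least 2-fold. Members had passed such a p in both d2 libraries, at lower backgrounds. The count of all 1518 after scaling up was thus largely fixed by the rule and is no finding. A summit is the highest point of a peak and members were selected on it. The counts and ratios after the GC shift rest on the same values and run high. The part of the library difference in the d2-only calls was not tested.

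The core and naive pluripotency list had 9 of 35 genes with a d2-only start region (25.7%, 14.2 to 42.1), beside 10.8% of all coding genes. Pou5f1, which encodes the transcription factor OCT4, had its region at chr17:35504788-35505385, 633 bp from the nearest start, with the summit at -914 bp relative to it, and fold enrichments of 10.6 and 12.2. Its summit pileups of 42 and 60 in d2 replicates 1 and 2 were the highest of any member. Epcam, an epithelial adhesion gene that is also high in mESCs, had 10.2 and 12.4 over its TSS. Zfp42, which encodes the naive-state marker REX1, had 8.41 and 15.8, and Fgf4, the autocrine ligand that primes mESCs to leave the naive state, had 7.29 and 12.3. L1td1, a gene for an RNA-binding protein of pluripotent cells, had 7.54 and 6.95, and Eras, a RAS-like gene of mESCs, had 6.25 and 8.43. For these 6 genes no start region was called at d4. The remaining 3 genes, named after their values were seen, were Zscan10, with no start called at d4, and Lin28a and Sall4, each with another start region called in both d4 libraries, which at Lin28a was called only at d4.

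Epithelial adhesion and polarity genes had the highest share of any list, 21 of 42 genes (50.0%, 35.5 to 64.5). The list holds genes of tight junctions, desmosomes and polarity complexes together with epithelial regulators, proteases and their inhibitors. Of the 23 regions, 21 lay over a TSS and 13 were CpG-rich, and 15 of the 21 genes had no start region called at d4. Spint1 and Spint2, which encode membrane inhibitors of serine proteases, had fold enrichments of 9.55 and 11.2, and of 9.01 and 11.1, in d2 replicates 1 and 2. St14, the gene of matriptase, a protease that both inhibit, had 8.38 and 12.1. Cldn3, which encodes a tight junction claudin, had 7.79 and 10.1. Pard3, a polarity gene, had 13.5 and 8.31 at a start other than its principal one, and another start region of the gene was called in both d4 libraries. Epcam is in this list as well as in the pluripotency list.

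Germline and meiosis genes followed with 14 of 29 genes (48.3%, 31.4 to 65.6). All 14 lacked a start region called at d4, and 8 other genes of the list had one called in all 4 libraries. The 15 regions were all near a principal start, 12 lay over a TSS, 10 were CpG-rich and 0 were CpG-poor, with a median CpG observed over expected of 0.74. Syce1, Syce2 and Sycp3, whose products are parts of the synaptonemal complex that joins homologous chromosomes in meiosis, had fold enrichments of 9.01 and 9.43, 7.17 and 7.95, and 7.05 and 7.84 in d2 replicates 1 and 2. Hormad2, which encodes a meiotic axis protein, had 8.69 and 8.84. Dmc1, the meiotic recombinase gene, had 7.91 and 10.7, and Ddx4, a germ cell RNA helicase gene, had 7.49 and 7.34. The lower fold enrichment of the 15 regions ran from 4.81 to 9.01 with a median of 6.92, against 6.18 over all members. The share of its genes was 4.48 times that of all coding genes with the lists as deposited, 1.07 times when every library was held to -log10 q of at least 10, and 3.27 times when only the d2 libraries were. A limit in every library also drops weaker d4 peaks, so promoters with such a peak can count as d2-only. The cause of the dependence on the limit was not tested.

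**Figure D4:**
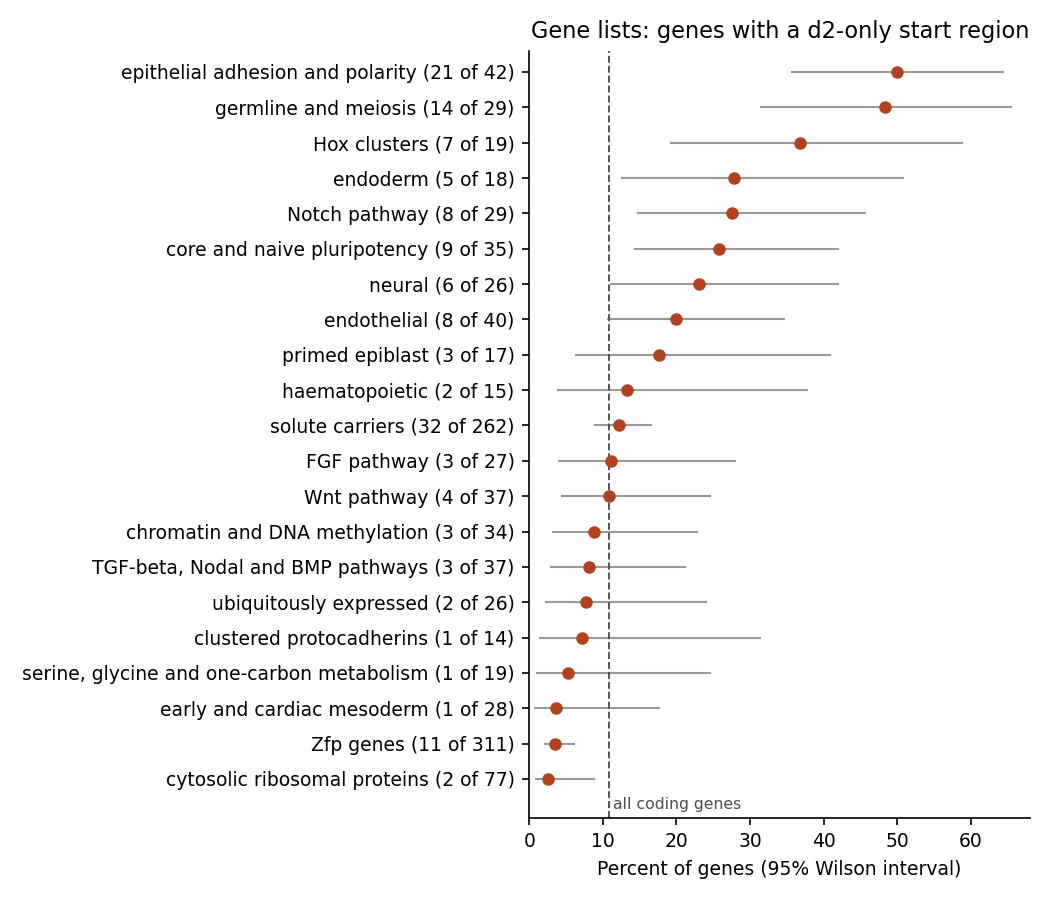
Percent of the genes of each list with a d2-only start region (horizontal, with 95% Wilson intervals), for the lists with at least 14 genes that had any called start region, from highest at the top. The counts stand beside each name and the dashed line marks the 10.8% of all coding genes. The epithelial and germline lists exceed it most, and the ribosomal protein and Zfp lists fall furthest below it.

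Signalling and lineage lists were mixed. The Notch list had 8 of 29 genes (27.6%, 14.7 to 45.7), of which 5 had another start region called at d4. Hes6, a gene for a HES repressor family member, had 7.32 and 9.36, Mfng, a glycosyltransferase of Notch receptors, had 6.37 and 8.68, and Heyl, a Notch target, had 5.57 and 5.98. Hes3, of the same repressor family, had 4.93 and 6.36, the receptor gene Notch4 had 4.66 and 4.84, and Lfng, a relative of Mfng, had 4.38 and 8.13. The neural list had 6 of 26 genes (23.1%, 11.03 to 42.1), all of them in CpG-rich windows. These were the transcription factor genes Dlx2 (6.14 and 10.2), Pax3 (5.91 and 7.05), Olig2 (5.88 and 5.74), Lhx2 (5.26 and 6.85) and Pax6 (5.11 and 6.31) and the neuronal tubulin gene Tubb3 (5.10 and 8.68). Lhx2 and Pax6 had another start region called in both d4 libraries.

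The endothelial list had 8 of 40 genes (20%, 10.5 to 34.8), of which 5 had another start region called at d4 and 3 did not. Efnb2, the arterial ephrin gene, had 6.99 and 6.11 in a region 879 bp from a start, and another start region of it was called in both d4 libraries. Cldn5, an endothelial claudin gene, had 5.70 and 6.60, and Elk3, an ETS factor gene, had 5.55 and 6.11, each with no start called at d4. The other gene with no start called at d4 was Sox7, which is in the endoderm list as well. Fli1, also an ETS factor gene, had 6.14 and 5.17, with another start region called in 1 d4 library. The study reports higher RNA of Sox7 and Fli1 at d4 than at d2, and a peak call at a promoter is not a measure of expression. Lmo2, a partner of TAL1, had 5.11 and 6.28, and Rhoj had 5.58 and 6.34. Both had another start region called in both d4 libraries, and their d2-only regions lay 222 and 46 bp from a d4 peak. The median lower fold enrichment of the 8 regions, 5.36, was below the 6.18 of all members. In the same list 3 genes had a promoter called only at d4.

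The endoderm list had 5 of 18 genes (27.8%, 12.5 to 50.9), none with another start region called at d4. Foxa2, a pioneer factor gene of endoderm, led it with 8.83 and 8.31, and Apob, Lamb1, Afp and Sox7 had lower values between 4.98 and 6.05. The trophoblast list had 3 of 9 genes, Ascl2 (6.88 and 8.93), Cdx2 (5.27 and 7.25) and Tfap2a (5.11 and 5.63). Ascl2 and Tfap2a had another start region called at d4. The primed epiblast list had 3 of 17, with Sox3, a neural and epiblast factor gene, at 8.26 and 7.45, Etv5 at 5.46 and 11.7 and Lef1 at 4.87 and 6.72. Another start region was called at d4 for Etv5 and Lef1. In the haematopoietic list, 2 of 15 genes were members, the signalling gene Vav1 at 10.0 and 10.8 and Nfe2 at 4.45 and 5.62, the latter with another start region called at d4. Early and cardiac mesoderm genes had 1 of 28, Tbx20, at 5.37 and 4.34, with another start region called in both d4 libraries.

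Most other pathway lists stood near the share of all coding genes. The Wnt list had 4 of 37 genes (10.8%), the ligand gene Wnt8a (11.04 and 10.5), Apc (7.08 and 9.18), Dvl2 (6.40 and 6.73) and Lef1. The FGF list had 3 of 27 (11.1%), Fgf4, Etv5 and the receptor-like gene Fgfrl1 (5.72 and 6.44). The TGF-beta, Nodal and BMP list had 3 of 37 (8.11%), the ligand gene Gdf1 (9.13 and 8.66), the repressor gene Skil (4.74 and 6.50) and the receptor gene Acvr1 (6.61 and 4.70). Chromatin and DNA methylation genes had 3 of 34 (8.82%), Mta3 (9.56 and 5.37), Phc1 (4.76 and 5.59) and Cbx7 (4.304 and 6.93). In these 4 lists, Apc, Dvl2, Lef1, Etv5, Fgfrl1, Skil, Acvr1, Mta3 and Phc1 had another start region called at d4. The d2-only regions of Gdf1, Skil, Acvr1, Mta3 and Phc1 lay within 1000 bp of a d4 peak. In the serine, glycine and one-carbon list, 1 of 19 genes was a member (5.26%, 0.94 to 24.6), Tdh, the threonine dehydrogenase gene of mESCs, with 8.47 and 10.6. Solute carriers had 32 of 262 (12.2%).

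The lowest shares were those of ribosomal proteins and Zfp genes, with early and cardiac mesoderm close to them (3.57%, 0.63 to 17.7). Cytosolic ribosomal protein genes had 2 of 77 (2.60%, 0.72 to 8.98) and Zfp genes 11 of 311 (3.54%, 1.99 to 6.22), beside 10.8% of all coding genes. The ubiquitously expressed list had 2 of 26 (7.69%, 2.14 to 24.1). Its members were Eef1a1 (9.22 and 8.60) and Reep5 (5.82 and 5.77), each with another start region called in at least 1 d4 library. The lists were chosen with earlier results of these data known and their genes are not replicates of the culture, so the intervals are no test. Hox cluster genes, in contrast, had the highest share after the epithelial and germline lists, 7 of 19 (36.8%, 19.15 to 58.96) in 6 regions. Clustered protocadherins had 1 of 14 and olfactory receptors 2 of 13.

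Motifs of factors that bind the promoters of widely expressed genes were rarer at the d2-only promoters than at promoters called in all 4 libraries. The windows were 200 bp around the summit and both strands were searched. The CCAAT box, bound by NF-Y, was in 20.8% of members (18.8 to 22.9), in 34.6% (33.7 to 35.6) of promoters called in all 4 and in 27.8% of all 16595 coding-gene promoters. The GC box, bound by SP and KLF factors, was in 52.2% of members (49.7 to 54.7), 64.6% (63.6 to 65.5) of those called in all 4 and 56.6% of all. The ETS motif CCGGAAGT was in 1.32% of members (0.85 to 2.03), 7.14% (6.64 to 7.67) of those in all 4 and 4.82% of all. The NRF1 motif GCGCATGC was in 1.05%, 4.18% and 3.00% of the same 3 sets, the YY1 motif AAGATGGC in 0.72%, 3.70% and 2.62%, and the CRE motif TGACGTCA in 1.12%, 3.54% and 2.53%.

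The shares were also compared within windows of like CpG content. Within CpG-rich windows the CCAAT box was in 15.2% of members (12.8 to 17.8) and 33.0% (31.9 to 34.0) of promoters called in all 4, and the ETS motif in 1.90% and 7.95%. The GC box was closer there, at 65.4% (62.0 to 68.6) and 68.9% (67.8 to 69.9). Promoters called only at d4 had 53 CpG-rich windows. Of these, 13.2% (6.55 to 24.8) held the CCAAT box, 49.1% (36.1 to 62.1) the GC box and 7.55% (2.97 to 17.9) the ETS motif. Low shares of the CCAAT and GC boxes were thus not particular to members. The shares were not matched for the distance of the summit from a TSS. The ZIC motif CAGCAGG was in 14.1% of members (12.4 to 15.9), 7.69% (7.17 to 8.24) of promoters called in all 4 and 9.26% of all. Within CpG-poor windows it was in 18.5% of members and 17.7% of promoters called in all 4, and in CpG-rich windows in 9.99% and 6.77%. The difference was largest in intermediate windows, at 18.7% (15.0 to 22.9) and 9.90% (8.54 to 11.4). Promoters called only at d4 held the motif in 3.77%, 16.7% and 14.9% of CpG-rich, intermediate and CpG-poor windows. Distal d2-only regions held it in 14.9%, 16.0% and 25.8% of the same kinds of window. Such shares were therefore not particular to members. Over whole regions, which are shorter in members, the ZIC motif was no more frequent in members than in promoters called in all 4. The difference was -0.26 percentage points. The octamer was in 1.52% of members (1.01 to 2.26), 1.10% (0.91 to 1.33) of promoters called in all 4 and 5.37% of distal d2-only regions. The GATA motif AGATAAG was in 0.66% of members (0.36 to 1.21) and 14.6% (11.2 to 18.8) of promoters called only at d4, and the TEAD motif ACATTCC in 1.32% and 5.97%. Low shares of both were not particular to members. Within CpG-poor windows GATA was in 1.42% of members, 2.45% of promoters called in all 4 and 21.2% of those called only at d4. The TEAD shares there were 2.84%, 4.59% and 6.76%. A match is a stretch of letters, not a measured binding site.

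**Figure D5:**
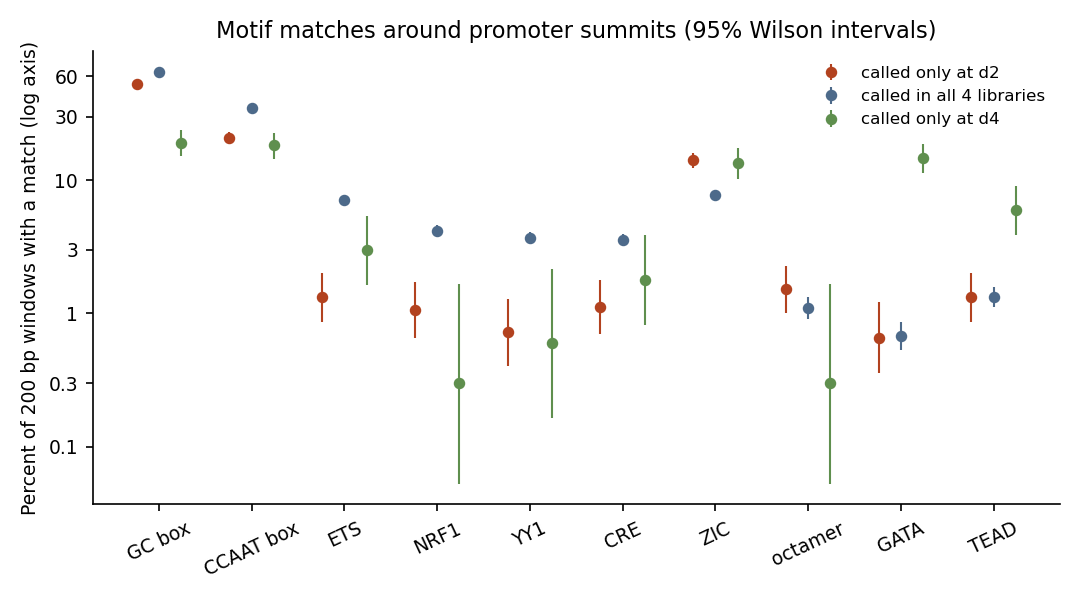
Percent of 200 bp windows around the summit with a match to each of 10 motifs (vertical, log axis, 95% Wilson intervals), for coding-gene promoters called only at d2, in all 4 libraries and only at d4. The d2-only points lie under those of all 4 libraries for the CCAAT box, ETS, NRF1, YY1 and CRE motifs. For GATA and TEAD they lie near the points of all 4 libraries, and both lie far under the d4-only points.

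Members were spread over the chromosomes, from 6.73% of the coding-gene promoters of chromosome 10 to 11.6% of those of chromosome 15, with 8.70% on the X chromosome. Around the distance limit of 1000 bp, the 3 farthest members lay 988 (Pip4k2a), 993 (Tsc22d3) and 998 bp from a start, and the 3 nearest d2-only regions outside lay 1002 (Ccdc60), 1007 (Catsperg1) and 1011 bp away. Around the peak threshold, the weakest members had a lower -log10 q of 3.07 (Slc9a3r2), 3.10 (Begain) and 3.11 (Jpt1) in a d2 library. Just outside were regions with both d2 peaks and a single d4 peak, of which the weakest had -log10 q of 3.03 (Ttll8), 3.04 (Slc37a1) and 3.05 at d4.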

How the data were processed

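Each of the 4 ATAC-seq libraries had 1 deposited peak list. By the methods and the submitters' processing notes, adapters and poor bases were cut off with cutadapt after FastQC, read pairs were mapped with Bowtie2 (mm10), mitochondrial, duplicate and multi-mapping reads were dropped, MACS2 called peaks library by library, and blacklisted regions were excluded. Promoters with near-identical copies elsewhere are therefore under-represented. Whether pileups count fragments or extended reads could not be told from the methods. The deposited fold enrichment is the authors' ratio of summit pileup to local background, and beside it stand a -log10 p-value and a -log10 q-value from the authors' peak caller. The authors' score column was left out.

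Read totals are not in the lists. Summit pileup and background were solved from each fold enrichment and p, which gave whole pileups for 100% of peaks (within 0.01 in -log10 p). The smallest called pileup was 7 in both d4 and 6 in both d2 libraries, and at such depth counting error alone can lose a call. Transcript starts of protein-coding genes were from GENCODE mouse release 21. A gene's start regions are all called regions within 1000 bp of any of its starts. Composition was taken in 500 bp, and 28 motifs were searched in 200 bp, around the summit of the strongest peak. Intervals are 95% Wilson intervals. The count-based tests of the study need reads per region, so none was run. Scripts were tested on simulated data and used Python 3.11.15, pandas 2.3.3, SciPy 1.17.1, statsmodels 0.14.6 and pysam 0.24.0.

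The members, the 23 gene lists and the motifs were chosen with earlier results of these data known. Genes named were the 12 strongest members by the lower fold enrichment of both d2 libraries, the 10 strongest that are the only called start region of their gene, up to 6 per list of named genes, genes with 3 or more member regions, and the 3 on either side of each threshold. Genes with a clone or model name were counted and not discussed. Alternatives were stricter peak thresholds, other overlaps, windows and transcripts, and leaving out each library.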

Additional observations from a re-analysis of the deposited data

How the results depend on the processing

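No paired analysis was possible because the results come from no test, and whether libraries with the same replicate number share an experiment is not given in the sources used here. A peak in each d2 library and none in the d4 library of the same number is, by construction, the rule that gave the 1518 promoters. The rule was changed 1 choice at a time, and the gene lists were added to these alternatives after seeing the data. In the same order below stand the share of d2-only promoters over a coding TSS (62.8% as reported), the share whose gene has another start region called at d4 (39.7%), the median CpG observed over expected (0.632), the share within 1000 bp of a d4 peak (18.6%) and the median lower fold enrichment (6.18), of which the cause of each change was not tested. With -log10 q of at least 10 in all libraries, 992 promoters were d2-only, with 80.4%, 18.95%, 0.677, 6.45% and 8.39. This limit also drops weaker d4 peaks, so the 992 include promoters with a deposited d4 peak and are not a subset of the 1518. With that limit in the d2 libraries alone, 320 were left, with 73.1%, 34.4%, 0.538, 12.8% and 8.47. Among the top 15000 peaks of each library, a choice that drops weaker d4 peaks too, 743 were d2-only, with 79.0%, 20.1%, 0.656, 6.46% and 8.31. With -log10 q of at least 5 in all libraries, the share over a TSS was 65.8%, that with another start 36.3% and the fold enrichment 6.47. A reciprocal overlap of 50% gave 66.0%, 34.6%, 0.684, 54.0% and 7.197, the share near a d4 peak being high because peaks that overlap less then count as separate. Merging peaks within 500 bp gave 69.3%, 28.8%, 4.72% near a d4 peak and 6.27. A window of 500 bp around the start gave 70.3%, 35.0% and 0.651, and one of 2500 bp gave 52.5%, 48.1% and 0.584. Starts of protein_coding transcripts alone gave 33.0% with another start and a CpG ratio of 0.659. The CpG ratio was 0.655 in 200 bp windows and 0.654 over whole regions.

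Leaving out 1 library at a time, the number of d2-only promoters ran from 2117 to 2853, the share over a TSS from 40.0% to 65.9%, the share with another start from 33.4% to 51.8%, the CpG ratio from 0.620 to 0.670, the share near a d4 peak from 15.5% to 32.4% and the fold enrichment from 6.08 to 6.58. The lowest shares over a TSS came without a d2 library, when peaks of a single d2 library were enough.

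The share of germline genes was 4.48 times that of all coding genes as reported, 1.07 times with -log10 q of at least 10 in all libraries, 2.07 times among the top 15000 peaks and 2.899 times with reciprocal overlap. Pluripotency genes stood at 2.39 times as reported, and at 4.22, 6.34 and 4.38 times with the limit in all libraries, in d2 alone and among the top 15000 peaks. Epithelial genes stood at 4.64 times as reported and at 8.33 times with the limit in d2 alone. Without single libraries the 3 lists ranged from 2.99 to 3.79, 1.90 to 2.46 and 3.11 to 3.78 times.

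Motif shares of members minus those of promoters called in all 4, in percentage points, were -11.5 for CCAAT, -7.33 for ETS, -4.41 for NRF1, -5.25 for YY1 and 9.36 for ZIC in 500 bp windows. Over whole regions, which are shorter in members, they were -21.1 for the GC box, -23.6 for CCAAT, -9.19 for ETS, -5.92 for NRF1, -6.98 for YY1, -3.61 for CRE and, in reverse of the reported 6.41, -0.26 for ZIC.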
